A study of Mus musculus with 16 samples.

Results

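The genes described here are 10 components of the pathways that detect RNA or DNA in the cytosol of mouse macrophages. They were chosen by name, as the probes whose gene name in the array files was Ddx58, Ifih1, Dhx58, Eif2ak2, Zbp1, Aim2, Ifi204, Ifi205, Tbk1 or Ikbke. The rule found 20 probes among 41077 on the array. Of these, 19 probes from 9 genes were well above background in at least 1 group, and those 9 genes are among the 17658 that were tested. The single Aim2 probe was well above background on 0 of 16 arrays, so Aim2 could not be tested.

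The arrays compared bone-marrow-derived macrophages of miR-155 KO mice, which lack the microRNA miR-155, with those of WT mice. Marrow of male C57BL/6Jax mice was cultured for 9 days in medium holding M-CSF at 10 ng/mL, which turns marrow precursors into macrophages, and this was the same in every group. The adherent cells were lysed without stimulation (0 h) or after 6, 12 or 24 h with 100 ng/mL LPS, the endotoxin of Gram-negative bacteria. The 8 groups were thus these 4 times in KO cells and the same 4 in WT cells, with 2 arrays of total RNA each. There was no later unstimulated group, so hours in culture and hours of LPS cannot be told apart. The labels do not say whether the 2 arrays of a group came from separate cultures or animals, so p-values measure only the spread between these samples, which may be technical.

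LPS is sensed at the cell surface by Tlr4, while the proteins described here act inside the cell. Ddx58 encodes RIG-I and Ifih1 encodes MDA5, helicases that bind foreign RNA and signal through the mitochondrial adaptor Mavs. Dhx58 encodes LGP2, a relative without signalling domains. Eif2ak2 encodes PKR, a kinase that halts translation on binding double-stranded RNA, and Zbp1 binds Z-form nucleic acids and can start necroptosis through Ripk3. Aim2, Ifi204 and Ifi205 belong to the PYHIN family, in which Aim2 binds DNA and builds an inflammasome. Tbk1 and Ikbke are not sensors but the kinases downstream, which phosphorylate the transcription factors Irf3 and Irf7. Many of these genes are themselves induced by type I interferon, which macrophages secrete after Tlr4 signalling.

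The microRNA that separates the genotypes is shown because its seed (bases 2 to 8, in capitals) defines the transcripts it can pair with. Its mature sequence, from RefSeq on GRCm38.p6, lies at chr16:84714143-84714165 on the plus strand. Ikbke has been reported as a target of miR-155.
mmu-miR-155-5p: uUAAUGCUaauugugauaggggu

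Promoter windows of 300 bases around the gene start, from RefSeq (GRCm38.p6), were given for 7 of the 10 genes, and Dhx58, Zbp1 and Ifi204 had no entry. They were searched on both strands for GAAA, any 2 bases and GAAA, the pattern that interferon regulatory factors are known to bind. Of the 7 promoters, 4 held it, those of Ddx58, Ifih1, Eif2ak2 and Ifi205, while 3.44% of all 32851 promoters of the same length did. The promoters of Aim2, Tbk1 and Ikbke did not hold these letters in this window. The 4 sequences are shown, with the matches in capitals, so that a reader can see where in the window they lie. Ikbke, whose promoter holds no match, was also called higher after LPS in all 6 comparisons below.
Ddx58 promoter (chr4:40239776-40240075, minus strand): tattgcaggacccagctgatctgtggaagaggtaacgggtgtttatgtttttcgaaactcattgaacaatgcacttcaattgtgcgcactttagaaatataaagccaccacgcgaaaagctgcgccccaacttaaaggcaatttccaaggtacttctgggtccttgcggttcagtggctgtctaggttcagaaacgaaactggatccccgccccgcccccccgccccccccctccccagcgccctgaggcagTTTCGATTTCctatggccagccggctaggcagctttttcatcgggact
Ifih1 promoter (chr2:62646206-62646505, minus strand): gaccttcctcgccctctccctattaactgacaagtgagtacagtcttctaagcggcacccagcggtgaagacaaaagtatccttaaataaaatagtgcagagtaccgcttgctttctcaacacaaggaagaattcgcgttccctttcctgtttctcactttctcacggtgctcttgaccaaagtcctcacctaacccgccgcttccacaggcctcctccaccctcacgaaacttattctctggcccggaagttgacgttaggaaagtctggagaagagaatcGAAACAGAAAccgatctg
Eif2ak2 promoter (chr17:78882523-78882822, minus strand): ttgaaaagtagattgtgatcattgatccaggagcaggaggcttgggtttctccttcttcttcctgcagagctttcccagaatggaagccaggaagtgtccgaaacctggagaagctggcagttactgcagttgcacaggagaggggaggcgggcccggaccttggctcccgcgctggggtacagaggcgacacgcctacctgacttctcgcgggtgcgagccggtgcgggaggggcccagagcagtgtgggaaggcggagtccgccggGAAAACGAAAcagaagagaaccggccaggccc
Ifi205 promoter (chr1:174031706-174032005, minus strand): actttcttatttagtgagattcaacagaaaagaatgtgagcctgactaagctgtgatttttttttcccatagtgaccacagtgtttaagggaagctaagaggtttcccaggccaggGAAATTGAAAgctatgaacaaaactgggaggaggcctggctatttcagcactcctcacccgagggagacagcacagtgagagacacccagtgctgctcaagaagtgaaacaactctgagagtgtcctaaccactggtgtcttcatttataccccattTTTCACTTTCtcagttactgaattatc
The match began 3 bases after the gene start in Ddx58, 19 bases after it in Eif2ak2 and 33 bases after it in Ifih1. Ifi205 held 2 matches, the first 134 bases before the start and the second 24 bases after it. TTC, any 3 bases and GAA, a pattern bound by STAT factors, was found in 1 of the 7, that of Eif2ak2, and in 8.3% of all promoters. A match is a run of letters and shows no binding.

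Probes of 60 bases measured the transcripts, and their positions in the array files are on mm9. The 3 Ifi204 probes below are shown because the last of them is not particular to that gene. The first 2 lie end to end and list only Ifi204 among RefSeq transcripts, while the accession list of A_52_P83479 holds transcripts of Ifi204, Ifi205, Ifi211 and Mndal.
Ifi204 probe A_51_P408343 (chr1:175679365-175679424, minus strand): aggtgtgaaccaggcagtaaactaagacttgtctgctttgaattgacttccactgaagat
Ifi204 probe A_51_P408346 (chr1:175679425-175679484, minus strand): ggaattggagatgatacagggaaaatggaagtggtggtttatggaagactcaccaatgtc
Ifi204 probe A_52_P83479 (chr1:175686019-175686078, minus strand): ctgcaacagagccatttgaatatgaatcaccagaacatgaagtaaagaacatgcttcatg
The 2 Tbk1 probes are shown because they gave different calls. Each of them maps to an interval longer than its 60 bases, 1255 bases for the first and 224 for the second, so that its 60 bases are split on the genome.
Tbk1 probe A_51_P169850 (chr10:120989556-120990810, minus strand): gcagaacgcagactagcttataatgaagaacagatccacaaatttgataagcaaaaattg
Tbk1 probe A_52_P532029 (chr10:120988364-120988587, minus strand): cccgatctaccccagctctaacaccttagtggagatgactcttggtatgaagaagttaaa

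Per array the upper quartile of probe signals ranged over 270.1 to 727.0 scanner units, 56.0% to 67.6% of probes were well above background, and the arrays of a group correlated at r = 0.9554 to 0.9734. The array has 0 probes named for the host transcript of miR-155, so the knockout could not be checked from these data. All 8 macrophage markers were well above background on 16 of 16 arrays, as were Cd79b of B cells, Cd3e of T cells, Zbtb46 of dendritic cells, Hba-a1 of erythroid cells, Camp and Mpo of neutrophils, and Col1a1, Dcn and Pdgfrb of stromal cells. The neutrophil gene Elane, the dendritic cell gene Cd209a and the mast cell and basophil genes Cpa3, Mcpt8 and Ms4a2 were above background on 0. Per the file headers, all first replicates were scanned in 1 session and all second replicates in another, and 9657 genes differed between the sessions. Levels below are log2 signal minus the upper quartile of the same array, so that 0 is that quartile and a step of 1 is a doubling. They show how a transcript changes on its own probe, not which of the genes is more abundant.

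After LPS all 9 measured genes had a log2 change above 0 in both genotypes and at every time, and 8 of them, all but Tbk1, were called higher. In KO cells the 8 were called at 6, 12 and 24 h, where 12.3%, 9.49% and 4.97% of all tested genes were called higher (limma, Benjamini-Hochberg adjusted p under 0.05). In WT cells the 8 were called at the same times, where the shares over all genes were 12.6%, 9.68% and 5.61%. The median log2 change of the 9 genes at 6 h was 4.25 in KO cells and 4.46 in WT cells, against medians over all genes of 0.0145 in KO and 0.0578 in WT. The 2 LPS arrays lay above both 0 h arrays for 9, 8 and 8 of the genes at 6, 12 and 24 h in KO cells, where 25.7%, 27.1% and 22.2% of all genes did so. In WT cells this held for 9, 9 and 8 genes, against 30.9%, 26.4% and 25.4% of all genes. The comparisons of 1 genotype share their 0 h arrays. These are bulk cultures, in which more cells of a kind and more RNA per cell cannot be told apart.

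**Figure D1:**
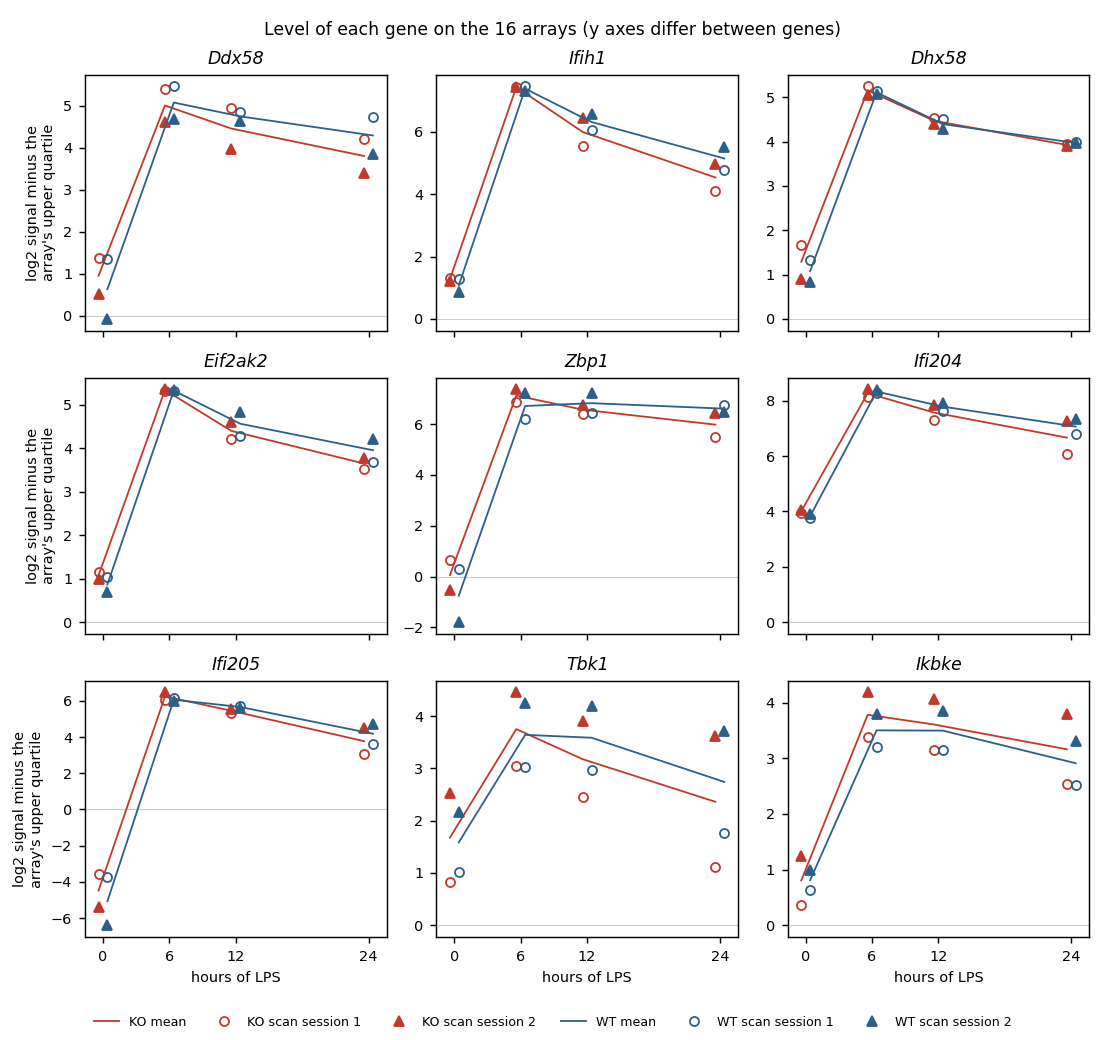
Log2 level (signal minus the array's upper quartile) of the 9 measured genes on each of the 16 arrays against hours of LPS, KO in red left of WT in blue. Open circles are the first scan session, filled triangles the second, and lines join the group means of 2 arrays. Tbk1, Ikbke and Ifi204 were higher in the second session in all 8 groups, Ddx58 and Dhx58 lower in all 8.

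Among the RNA helicases, Ifih1 (MDA5, probe at chr2:62435621-62435680, mm9) had log2 levels in KO cells of 1.33 and 1.22 at 0 h, 7.45 and 7.43 at 6 h, 5.56 and 6.44 at 12 h, and 4.11 and 4.97 at 24 h. In WT cells its levels were 1.29 and 0.86 at 0 h, 7.47 and 7.31 at 6 h, 6.06 and 6.58 at 12 h, and 4.77 and 5.53 at 24 h. The level was highest at 6 h in both genotypes and the 0 h arrays lay below all LPS arrays. At 6 h the rise was 71.8-fold in KO cells (log2 6.17 ± 0.41 SE, n = 2 arrays a group, limma adjusted p = 9.9e-06) and 79.8-fold in WT cells (6.32 ± 0.41, adjusted p = 7.38e-06). By 24 h the log2 change over 0 h was 3.26 ± 0.41 in KO and 4.07 ± 0.41 in WT.

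Ddx58 (RIG-I, chr4:40156918-40156977) had levels in KO cells of 1.38 and 0.52 at 0 h, 5.41 and 4.61 at 6 h, 4.94 and 3.98 at 12 h, and 4.21 and 3.40 at 24 h. WT cells had 1.34 and -0.08 at 0 h, 5.47 and 4.69 at 6 h, 4.86 and 4.64 at 12 h, and 4.74 and 3.85 at 24 h. The second array was the lower of the pair in every group, by 0.21 to 1.42 on the log2 scale. The rise at 6 h was 4.06 ± 0.59 in KO cells and 4.45 ± 0.59 in WT cells, or 16.7-fold and 21.9-fold. In KO cells at 24 h it was 2.85 ± 0.59 (limma adjusted p = 0.0123), and the call was lost without the first KO array at 24 h (2.45, adjusted p = 0.0773) or without the second KO array at 0 h (2.42, adjusted p = 0.107).

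Dhx58 (LGP2, chr11:100556271-100556330) followed the same course with a smaller change. Its levels in KO cells were 1.67 and 0.91 at 0 h, 5.25 and 5.06 at 6 h, 4.54 and 4.40 at 12 h, and 3.95 and 3.90 at 24 h. In WT cells they were 1.33 and 0.83 at 0 h, 5.15 and 5.07 at 6 h, 4.50 and 4.29 at 12 h, and 3.98 and 3.96 at 24 h. KO and WT arrays lay close together after LPS and spread most at 0 h. At 6 h the log2 change was 3.86 ± 0.29 in KO cells and 4.04 ± 0.29 in WT cells, and at 24 h it was 2.64 ± 0.29 in KO and 2.89 ± 0.29 in WT.

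Of the other RNA-binding proteins, the kinase gene Eif2ak2 (PKR, chr17:79252168-79252227) had levels in KO cells of 1.16 and 0.99 at 0 h, 5.32 and 5.35 at 6 h, 4.20 and 4.59 at 12 h, and 3.52 and 3.77 at 24 h. In WT cells the levels were 1.03 and 0.70 at 0 h, 5.31 and 5.33 at 6 h, 4.28 and 4.84 at 12 h, and 3.68 and 4.22 at 24 h. The 4 arrays at 6 h all lay between 5.31 and 5.35, and both 0 h groups lay below every LPS array. The rise at 6 h was 19.1-fold in KO cells (log2 4.25 ± 0.29) and 22.0-fold in WT cells (4.46 ± 0.29).

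Zbp1 (chr2:173032113-173032170), the sensor of Z-form nucleic acids, had levels in KO cells of 0.64 and -0.51 at 0 h, 6.88 and 7.37 at 6 h, 6.38 and 6.76 at 12 h, and 5.51 and 6.45 at 24 h. WT cells had 0.29 and -1.79 at 0 h, 6.20 and 7.23 at 6 h, 6.43 and 7.22 at 12 h, and 6.74 and 6.48 at 24 h. The WT arrays at 0 h were 2.07 apart, the widest gap of this gene. The log2 change was 7.06 ± 0.68 at 6 h and 5.91 ± 0.68 at 24 h in KO cells, and 7.46 ± 0.68 at 6 h and 7.36 ± 0.68 at 24 h in WT cells. The difference between KO and WT in the log2 response of Zbp1 at 24 h was -1.45 ± 0.96 (95% interval -3.57 to 0.68, limma adjusted p = 1), and it ranged from -2.48 to -0.41 over all alternatives. The 24 h change in WT was 6.32 without the second WT array at 0 h and 8.40 without the first, and within the sessions it was 6.46 and 8.26.

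Among the PYHIN genes, Ifi205 (chr1:175956747-175956806) had the largest log2 change of the 9 measured genes on the probe that stood for it. In KO cells its levels were -3.57 and -5.39 at 0 h, 6.02 and 6.46 at 6 h, 5.34 and 5.56 at 12 h, and 3.05 and 4.49 at 24 h. In WT cells they were -3.74 and -6.40 at 0 h, 6.13 and 5.99 at 6 h, 5.73 and 5.59 at 12 h, and 3.62 and 4.74 at 24 h. At 0 h both KO arrays were well above background but only 1 of 2 WT arrays was, so the size of the WT change leans on a dim signal. The log2 change at 6 h was 10.72 ± 0.85 in KO cells (limma adjusted p = 2.08e-05) and 11.13 ± 0.85 in WT cells (adjusted p = 1.7e-05), and at 24 h it was 8.26 ± 0.85 in KO and 9.25 ± 0.85 in WT. With the mean of both Ifi205 probes, the other of which is dim, the 24 h change of Ifi205 was 4.32 in KO and 5.43 in WT, below the 5.91 in KO and 7.36 in WT of Zbp1. Leaving out the second WT array at 0 h moved the WT change of Ifi205 to 9.80 at 6 h and 7.92 at 24 h, and leaving out the first moved it to 12.46 and 10.58. In KO, leaving out the second array at 0 h gave 9.81 at 6 h and 7.34 at 24 h, and leaving out the first gave 11.63 and 9.17.

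Ifi204 (chr1:175679365-175679424), reported to sense DNA through Sting1, rose in both genotypes on a probe that read above the array's upper quartile on all 16 arrays. KO cells had 3.96 and 4.05 at 0 h, 8.13 and 8.41 at 6 h, 7.31 and 7.83 at 12 h, and 6.07 and 7.26 at 24 h. WT cells had 3.77 and 3.89 at 0 h, 8.27 and 8.39 at 6 h, 7.64 and 7.93 at 12 h, and 6.79 and 7.34 at 24 h. The 0 h arrays of a genotype were within 0.12 of each other, while the 2 KO arrays at 24 h were 1.19 apart. The rise at 6 h was 19.2-fold in KO cells (log2 4.27 ± 0.38) and 22.6-fold in WT cells (4.50 ± 0.38).

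Aim2 (chr1:175395269-175395328) gave no level that could be read. Its probe measured -8.72 to -6.58 in KO cells and -8.45 to -6.53 in WT cells over the 8 arrays each, all not well above background. The GC content of that probe was 20.0%, against 25% to 45.0% in the other 19 probes. Of the 345 probes on the array with a GC content at or below that of the Aim2 probe, 10.4% were well above background in at least 1 group, against 65.4% of all probes. Whether the Aim2 transcript was absent or missed by this probe was not tested.

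Of the downstream kinases, Ikbke (chr1:133151809-133151868) rose in both genotypes. Its levels in KO cells were 0.36 and 1.25 at 0 h, 3.38 and 4.18 at 6 h, 3.14 and 4.07 at 12 h, and 2.53 and 3.79 at 24 h. In WT cells they were 0.63 and 0.99 at 0 h, 3.21 and 3.79 at 6 h, 3.14 and 3.85 at 12 h, and 2.52 and 3.30 at 24 h. The second array was the higher in all 8 groups, by 0.79 on average. The log2 change was 2.98 ± 0.55 at 6 h, 2.80 ± 0.55 at 12 h and 2.36 ± 0.55 at 24 h in KO cells, and 2.69 ± 0.55, 2.69 ± 0.55 and 2.10 ± 0.55 at those times in WT cells. The highest limma adjusted p of these was 0.035, at 24 h in WT. That call was lost without any 1 of the 4 WT arrays at 0 and 24 h (adjusted p = 0.0562 to 0.25), and the 24 h call in KO cells without the first KO array at 0 h (0.133) or the second at 24 h (0.191). The 12 h calls were lost without the second 12 h array, with an adjusted p of 0.0574 in KO and 0.064 in WT.

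Tbk1 (chr10:120988364-120988587) differed more between scan sessions than any other of these genes, with the second array higher in all 8 groups by 1.15 to 2.51. KO cells had 0.83 and 2.52 at 0 h, 3.05 and 4.45 at 6 h, 2.45 and 3.90 at 12 h, and 1.11 and 3.61 at 24 h. WT cells had 1.01 and 2.16 at 0 h, 3.03 and 4.25 at 6 h, 2.97 and 4.20 at 12 h, and 1.76 and 3.72 at 24 h. Within each session the level was higher at 6 h than at 0 h in both genotypes. The log2 change at 6 h was 2.07 ± 1.04 in KO cells (limma adjusted p = 0.183) and 2.05 ± 1.04 in WT cells (adjusted p = 0.183). With the scan session as a term in the limma fit its SE was 0.32 and the adjusted p was 0.000551 in KO and 0.000595 in WT (over all alternatives 0.000551 to 0.748 in KO and 0.000595 to 0.765 in WT). In that fit Tbk1 was called at every time but 24 h in KO cells, where the change was 0.68 (adjusted p = 0.148), so that 9, 9 and 8 genes were called higher in KO (21%, 19.6% and 11.7% of all genes) and 9, 9 and 9 in WT (23.6%, 18.6% and 13.3%). The second Tbk1 probe rose by 1.82 ± 0.42 in KO cells and 1.90 ± 0.42 in WT cells at 6 h and was called in both without the session term (limma over single probes, adjusted p = 0.0101 in KO and 0.00833 in WT).

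**Figure D2:**
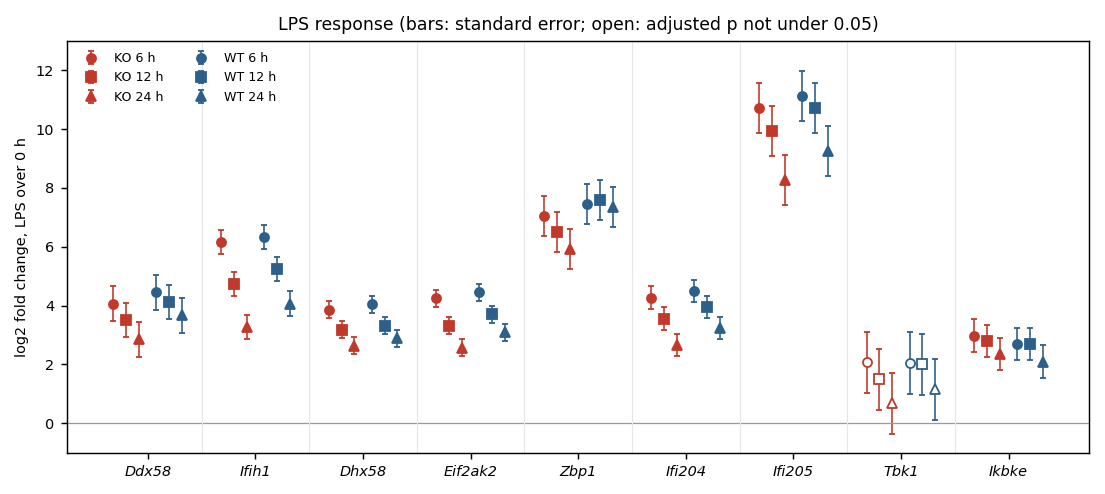
Log2 fold change over 0 h for the 9 measured genes at 6, 12 and 24 h, KO in red left of WT in blue, with standard errors from the limma fit. Open symbols missed an adjusted p of 0.05. Ifi205 spans 8.26 to 11.13 and Tbk1 0.68 to 2.07, and in KO cells the 6 h value is the highest of its course for all 9 genes.

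From 6 to 24 h of LPS the levels of several sensors fell. In KO cells 4 genes were called lower at 24 h than at 6 h, where 5.81% of all genes were called lower. They were Ifih1 (-2.90 ± 0.41, limma adjusted p = 0.00192), Eif2ak2 (-1.68 ± 0.29), Ifi204 (-1.61 ± 0.38) and Dhx58 (-1.22 ± 0.29, adjusted p = 0.0214). In WT cells 3 genes were called lower, against 4.86% of all genes, namely Ifih1 (-2.24 ± 0.41, adjusted p = 0.00748), Eif2ak2 (-1.37 ± 0.29) and Dhx58 (-1.14 ± 0.29, adjusted p = 0.0326). The value was below 0 for all 9 measured genes in both genotypes, with a median of -1.39 in KO and -1.14 in WT against -0.113 and -0.167 over all genes. All 3 falls in WT were lost without the first WT array at 6 h or the first at 24 h, those of Dhx58 and Eif2ak2 without the second at 6 h, and that of Dhx58 without the second at 24 h. In KO the fall of Dhx58 was lost without any 1 of the 4 KO arrays at 6 and 24 h (limma adjusted p = 0.0679 to 0.116). That of Ifi204 was lost without 3 of these 4, all but the second at 24 h (0.0729 to 0.144). The falls of Ifih1 and Eif2ak2 in KO were called without any 1 array.

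With the scan session in the fit 6 genes were called lower in KO, where Ddx58 (-1.21) and Tbk1 (-1.39) joined, and 5 in WT, where Ddx58 (-0.79) and Ifi204 (-1.26) joined, against 15.9% of all genes in KO and 16.1% in WT. Scaling the arrays on their median instead gave a median 24 h against 6 h change over all genes of 0.02 in KO and 0.11 in WT, where the upper quartile gave -0.11 in KO and -0.17 in WT, and left 1 called gene in KO and 0 in WT. Zbp1 changed by -1.14 ± 0.68 in KO and by -0.10 ± 0.68 in WT over that span. The difference between the genotypes, -1.04 ± 0.96, had a 95% interval of -3.17 to 1.08 (limma adjusted p = 1). The single steps from 6 to 12 h and from 12 to 24 h gave 0 called genes in either genotype in the limma fit, where 1.66% and 0.238% of all genes were called in KO and 1.68% and 0.187% in WT. At an unadjusted p under 0.05 there were 3 and 3 genes in KO and 3 and 1 in WT. The shares over all genes at that unadjusted threshold were not computed, so these counts have no background to be read against. With the session in the fit, Ifih1 (-1.44) and Eif2ak2 (-0.94) were called at the first step and Ifih1 (-1.47) at the second in KO (11.2% and 5.65% of all genes), and 0 of the genes in WT (10.6% and 3.82%).

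The comparison of KO with WT asks whether the loss of miR-155 altered these transcripts. At none of the 4 times was any of the 9 measured genes called (0 genes in limma, also 0 at an unadjusted p under 0.05 and 0 with the session in the fit). Over all genes the calls were 0% at 0, 6 and 24 h and 0.0113% at 12 h, and with the session 0.00566%, 0.0113%, 0.017% and 0% at the 4 times. For the average over the 4 times the count was again 0 in both fits, against 0.017% of all genes, or 0.0227% with the session. The tests of a different LPS response in KO, singly at 6, 12 and 24 h and jointly, called 0 of the 9 genes in either fit (0% of all genes without the session, at most 0.0113% with it). At an unadjusted p under 0.05 there were 0 genes without the session and 1 with it, Ddx58 at 24 h (limma adjusted p = 1). Shares over all genes at the unadjusted threshold were not computed for the comparisons of this paragraph.

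The KO minus WT values are given for what they bound. At 24 h they were -0.63 ± 0.68 for Zbp1 (95% interval -2.13 to 0.87), -0.61 ± 0.41 for Ifih1 (-1.52 to 0.29) and -0.49 ± 0.59 for Ddx58 (-1.81 to 0.82). The narrowest interval at that time was that of Dhx58, -0.69 to 0.60 around -0.04, and the widest that of Tbk1, -2.68 to 1.92 around -0.38. A 2-fold change was outside the interval in both directions for Dhx58 and Eif2ak2 (-0.95 to 0.35), while for each of the other 7 it was inside in at least 1 direction. With the session in the fit it was also outside for Ifi204 (-0.99 to 0.19) and Ikbke (-0.23 to 0.74), the interval of Tbk1 was -1.09 to 0.32, and the widest was that of Ifi205, -2.33 to 1.52. All measured genes but Ikbke (0.02 and 0.50) were lower in KO within both sessions at 24 h, and the share over all genes was not computed. The differences were -0.66 and -0.57 for Ifih1 and -0.03 and -0.06 for Dhx58. Zbp1 differed by -1.23 in the first session and by -0.03 in the second.

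At 0 h the KO minus WT value was above 0 in 8 of the 9 genes, from 0.09 in Tbk1 to 0.82 in Zbp1, and 0.00 in Ikbke. At 24 h the same 8 genes were below 0 and Ikbke was at 0.26 ± 0.55 (-0.97 to 1.48). These signs are those of 1 probe per gene. The second Dhx58 probe was at -0.39 at 0 h and 0.03 at 24 h, and the second Tbk1 probe at -0.01 and -0.03. The other Ddx58 and Ifih1 probes kept the signs. Over the 27 alternatives the 0 h value changed sign in 3 each for Dhx58 and Tbk1, and in fewer for the rest of the 8. A value above 0 at 0 h together with a value below 0 at 24 h was found in 25.3% of all tested genes. The difference in the 24 h response had a median of -0.577 over the 9 genes and of -0.012 over all genes. The 9 genes share the same arrays, so their signs are not 9 independent observations. Both KO arrays lay above both WT arrays for Ifi204 at 0 h (6.3% of all genes). Both lay below for Ifi205 at 12 h (6.99%) and for Dhx58 and Zbp1 at 24 h (10%). On the second Dhx58 probe the 24 h arrays overlapped (KO -2.30 and -2.60, WT -2.19 and -2.77). The 12 h arrays overlapped on the other Ifi205 probe. For Ifi204 at 0 h the KO arrays lay above again on A_51_P408346 and overlapped with WT on A_52_P811745 and A_52_P83479.

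**Figure D3:**
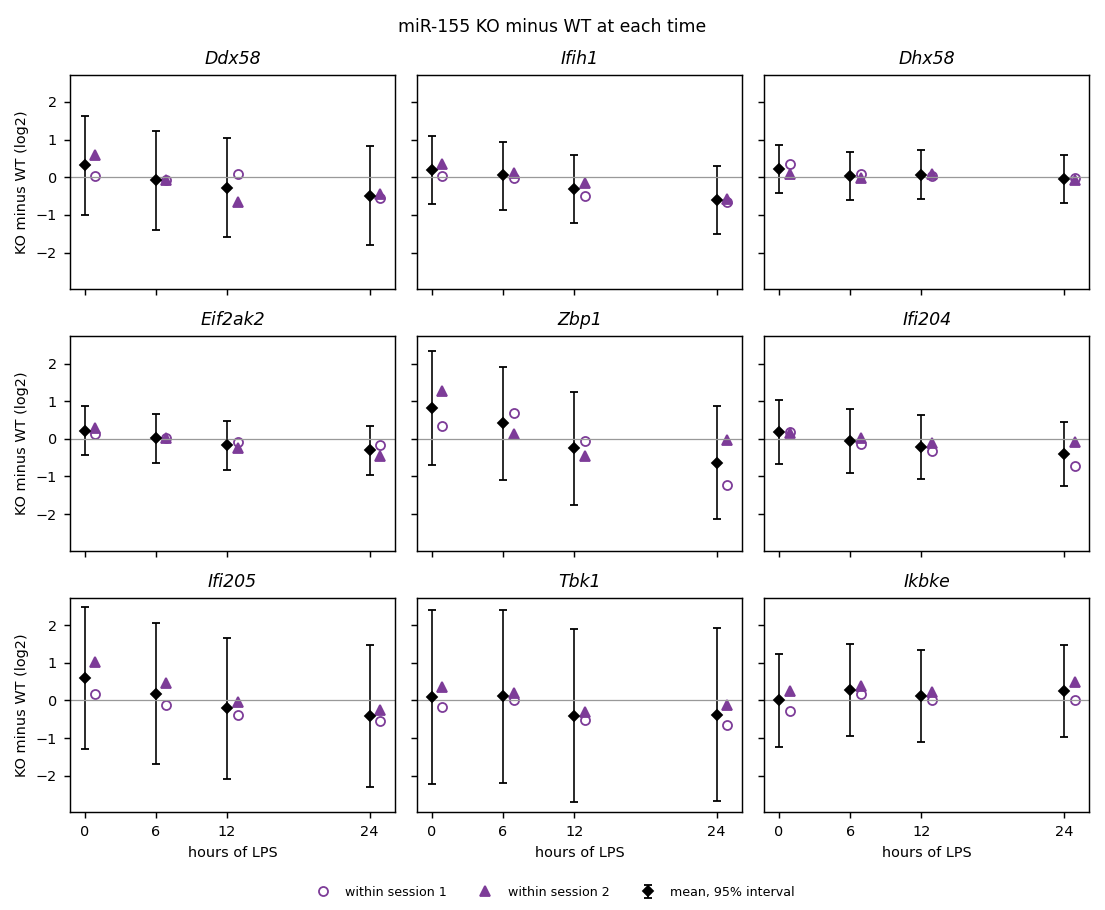
KO minus WT (log2) against hours of LPS for the 9 measured genes. Diamonds are the limma estimates with 95% intervals, and purple symbols the difference within each scan session. Every interval spans 0, and the width differs from gene to gene, from Dhx58 (-0.69 to 0.60 at 24 h) to Tbk1 (-2.68 to 1.92).

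Some of the genes could be read on several probes. The counts here include the 9 probes that stood for the genes, and Eif2ak2, Zbp1 and Ikbke had a single probe. The second Ifi205 probe passed the background filter only through its 6 and 12 h groups, so its rise at those times is no separate evidence. All 19 measured probes had a positive log2 change at 6 and 12 h in both genotypes, and so did the 18 that could be read at 24 h, where the second Ifi205 probe was below background in both groups compared. Of these, 18, 17 and 15 were called at 6, 12 and 24 h in KO cells (12.2%, 8.72% and 4.38% of all probes were called higher) and 18, 18 and 15 in WT cells (12.3%, 9.03% and 4.91%). The 4 Ddx58 probes rose by 3.85 to 5.18 at 6 h in KO and by 4.17 to 5.05 in WT, and the 2 Ifih1 probes by 5.88 and 6.17 in KO and by 6.29 and 6.32 in WT. The second Dhx58 probe rose by 3.47 ± 0.58 in KO and 3.03 ± 0.58 in WT. Of the Ifi204 probes, the shared A_52_P83479 rose most, by 5.50 ± 0.52 in KO and 6.03 ± 0.52 in WT at 6 h, and signal from the transcripts of its relatives cannot be told apart there.

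The remaining Ifi204 and Ifi205 probes behaved less alike. A_52_P811745, named for Ifi204 but placed at chr1:175796466-175796525 (mm9) away from the other 3, rose by 3.08 ± 0.78 in KO and 3.12 ± 0.78 in WT at 6 h and was not called at 24 h (1.31 in KO, 1.76 in WT). The second Ifi205 probe was not well above background on any array at 0 h or 24 h, so only a bound can be given. At 6 h its signal was at least 8.13-fold higher than at 0 h in KO cells and at least 9.02-fold higher in WT cells. For the bound, each dim array entered with its own signal or, if higher, the weakest signal that any clearly detected probe had on it.

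**Figure D4:**
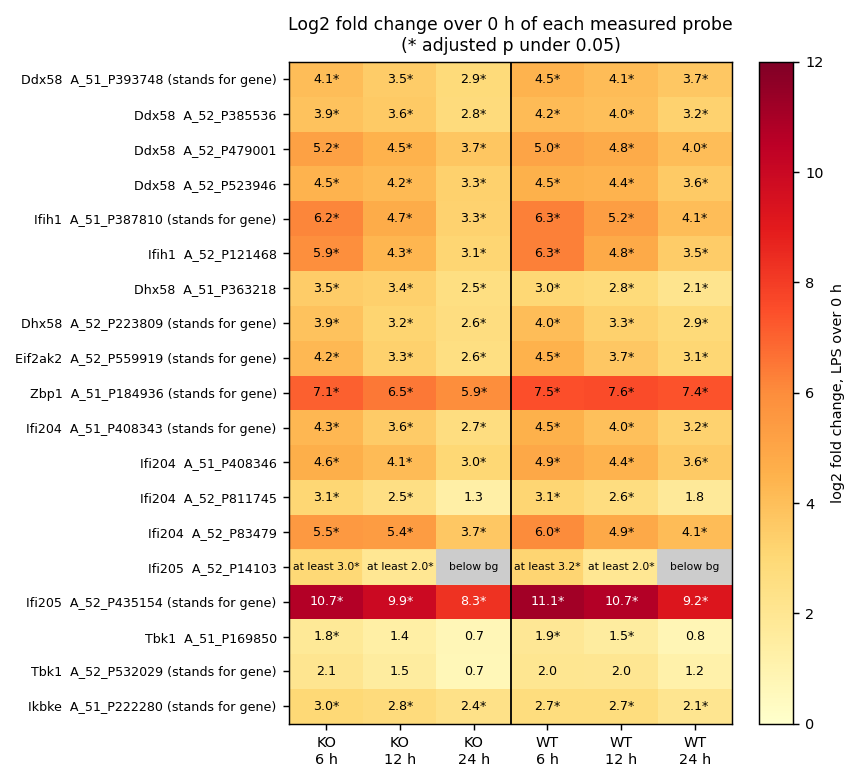
Log2 fold change over 0 h of each of the 19 measured probes (rows) at 6, 12 and 24 h in KO and in WT cells (columns). An asterisk marks an adjusted p under 0.05 in the limma fit over single probes, grey cells are below background in both groups, and "at least" marks a bound; the values that could be read run from 0.68 (Tbk1, KO at 24 h) to 11.13 (Ifi205, WT at 6 h).

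The courses of the genes were set beside those of all others by the root mean square difference of their 8 group means, each centred on its own mean. Eif2ak2 and Ifi204 were each other's nearest among the 9, at 0.104 on the log2 scale. The gene with the course most like Ddx58 was Gvin1, an interferon-inducible GTPase (0.0771), and for Eif2ak2 and for Ifi204 it was Trim30d (0.076 and 0.111). Zbp1 was closest to Ifit3 (0.152), followed by Ifi209 and Irf7, and Dhx58 to Parp14 (0.128). Ifih1 had Ifi47 (0.242) and Ifi205 had Gbp4 (0.406) as the nearest, both interferon-inducible GTPases. For the kinases the nearest were Mov10 for Ikbke (0.135), an RNA helicase, and Phc2 for Tbk1 (0.0773). Likeness was measured over 8 group means that share their arrays and is given as a description.

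Around the 10 genes, a list of 74 further pathway genes was followed, of which 72 were tested. At 6 h 31 of them were called higher and 8 lower in KO cells and 29 higher and 8 lower in WT cells, against 12.3% higher and 13.8% lower over all genes in KO and 12.6% and 12.8% in WT. At 24 h 20 were higher and 1 lower in KO, against 4.97% higher and 4.94% lower over all genes, and 24 were higher and 1 lower in WT, against 5.61% and 5.42%. The median change of the list at 6 h was 0.95 in KO and 0.86 in WT. With the session in the fit the 6 h counts were 39 higher and 15 lower in KO, against 21% and 22.7% of all genes, and 38 higher and 13 lower in WT, against 23.6% and 22%. For KO against WT 0 of the 72 were called at any time in either fit, and this includes Ripk1 (-0.09, -0.06, -0.18 and 0.00, in order of time) and Fadd (0.08, -0.01, 0.12 and 0.15), which have been reported as targets of miR-155.

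All 3 tested PYHIN relatives rose at 6 h, with Ifi209 (listed as Pyhin1) at 7.44 ± 0.69 in KO and 7.89 ± 0.69 in WT, and Ifi211 (listed as Mnda) at 5.29 ± 0.36 in KO and 5.39 ± 0.36 in WT. Of 22 adaptors, kinases and transcription factors 12 rose and 1 fell in KO and 11 rose and 1 fell in WT. The shares over all genes were 12.3% higher and 13.8% lower in KO, and 12.6% and 12.8% in WT. Irf7, the interferon-inducible transcription factor that Tbk1 and Ikbke phosphorylate, rose by 6.83 ± 0.72 in KO and 7.13 ± 0.72 in WT. The DNA sensor Cgas (listed as Mb21d1) rose by 2.58 ± 0.33 in KO and 2.83 ± 0.33 in WT. The adaptor Mavs, through which Ddx58 and Ifih1 signal, fell by 1.08 in KO and by 1.15 in WT at 6 h (SE 0.25 each, limma adjusted p = 0.0105 in KO and 0.00766 in WT). Mavs was not called later, with -0.31 in KO and -0.17 in WT at 12 h and 0.52 in KO and 0.31 in WT at 24 h. The adaptor Sting1 (listed as Tmem173) had a change of -0.07 ± 0.31 in KO and 0.65 ± 0.31 in WT and was not called in either.

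Of 24 modifiers and brakes of these pathways 12 rose and 2 fell in KO, and 11 rose and 2 fell in WT. Over all genes 12.3% were called higher and 13.8% lower in KO at 6 h, and 12.6% and 12.8% in WT. Isg15, a ubiquitin-like modifier, rose by 7.58 ± 0.44 in KO and 7.93 ± 0.44 in WT, and Usp18, the protease that removes it, by 7.37 ± 0.63 in KO and 7.60 ± 0.63 in WT. Samhd1, which breaks down the building blocks of DNA, rose by 4.11 ± 0.43 in KO and 4.23 ± 0.43 in WT, while Dnase2a, which digests DNA in lysosomes, fell by 3.76 in KO and by 3.60 in WT (SE 0.49 each). Among 4 genes around PKR 1 was called higher and 2 lower at 6 h in each genotype, beside the same shares over all genes. Its relatives Eif2ak3 and Eif2ak4 fell, Eif2ak4 with a change of -2.31 ± 0.44 in KO and -2.18 ± 0.44 in WT. The rise was that of Eif2s1, the target of PKR. The relative Eif2ak1 was not called (0.18 in KO, -0.07 in WT), and without the session neither fall was called at 24 h (Eif2ak3 was at -1.04 in KO and -1.39 in WT). With the session in the fit 1 of the 4 genes was called lower at 24 h in WT and 0 in KO. In that fit 2 were called higher in each genotype, against 11.7% of all genes in KO and 13.3% in WT. Of 16 other helicases and sensors 3 rose and 3 fell in each genotype, near the shares over all genes (12.3% higher and 13.8% lower in KO, 12.6% and 12.8% in WT). Of 3 IKK relatives 2 rose in each genotype with the session in the limma fit, where 21% of all genes in KO and 23.6% in WT did, and neither passed without it.

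**Figure D5:**
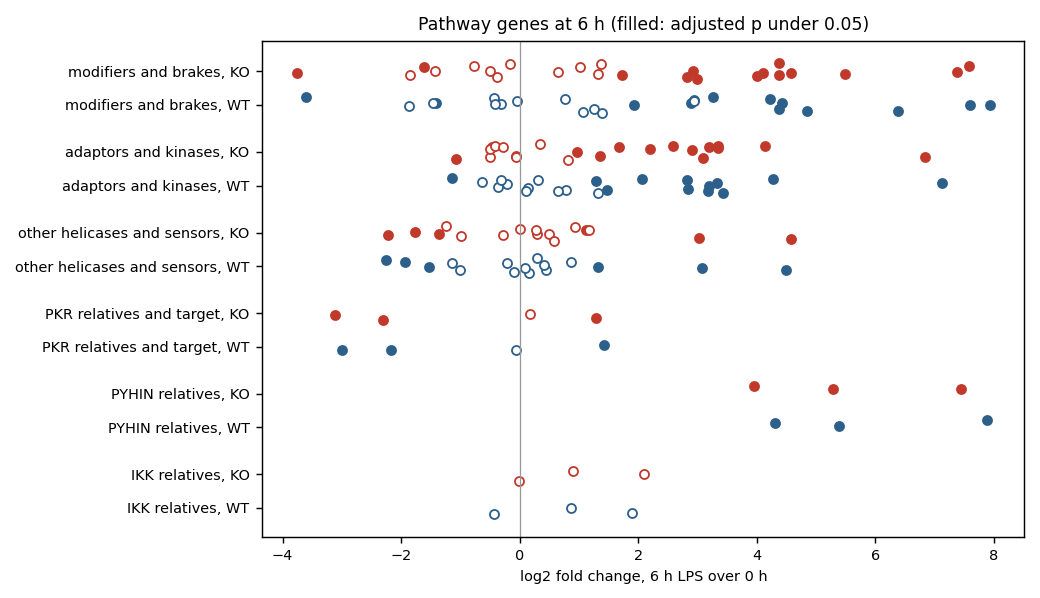
Log2 fold change at 6 h of LPS over 0 h for the 72 tested pathway genes, by list (rows, KO above WT). Filled points passed an adjusted p of 0.05, and vertical scatter only separates points. The PYHIN relatives lie between 3.96 and 7.89, and the other helicases and sensors lie on both sides of 0.

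Markers of several cell types moved at 6 h, those of macrophages among them. The sum of 8 macrophage markers was 2320 to 2770 in KO and 1890 to 2900 in WT at 6 h. At 0 h it was 910 to 1860 in KO and 845 to 1530 in WT. The sum of 4 B cell markers was lower at 6 h, 0.198 to 0.284 in KO and 0.299 to 0.323 in WT. At 0 h it was 0.354 to 0.523 in KO and 0.406 to 0.601 in WT. For plasmacytoid dendritic cells the summed linear signal, in units of the array's upper quartile, was 17.5 to 22.0 in KO and 17.6 to 25.1 in WT at 6 h, against 5.21 to 7.89 in KO and 4.95 to 6.18 in WT at 0 h. Siglech, a defining marker of that cell type, was well above background on 1 of 16 arrays, and Tcf4, which other cells express, on 16. The summed level of 4 stromal markers was 1.16 to 1.70 in KO and 0.97 to 1.60 in WT at 6 h, against 0.174 to 0.209 in KO and 0.209 to 0.219 in WT at 0 h. That of 3 conventional dendritic cell markers was 0.502 to 1.42 in KO and 1.41 to 1.76 in WT at 6 h, against 0.043 to 0.225 in KO and 0.0503 to 0.255 in WT at 0 h. The summed level of 6 neutrophil markers was 0.457 to 1.43 in KO and 0.461 to 2.35 in WT at 0 h. It was 0.2 to 1.25 in KO and 0.217 to 2.3 in WT at 6 h. At 24 h it was 0.129 to 0.636 in KO and 0.108 to 0.534 in WT. The part of other cell types in the changes above was not tested.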

How the data were processed

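The deposited files hold, per the file headers, the processed intensity of each spot on 16 single-colour Agilent arrays (Cy3, mm9 annotation), read by Agilent Feature Extraction 10.5.1.1 with background subtraction and detrending. A deposited series table of log2 values was used only as an alternative. Control spots (1639) and spots marked as outliers (61 to 108 per array) were left out, and 0 were saturated. Log2 intensities of repeated spots were averaged, then set relative to percentile 75 of their array. Probes well above background on both arrays of a group were kept (26854). Genes were named through RefSeq accessions, symbols or synonyms, and each gene was read on its brightest probe.

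A limma model (version 3.58.1, R 4.3.3) with a mean per group (8 residual and 2.29 prior degrees of freedom) was run over 17658 genes, with Benjamini-Hochberg adjustment and a threshold of 0.05. The procedure was tested on simulated data. Intervals are at 95%. The array number limits the precision. Replicate numbers pair the arrays: the deviations from the group means of same-numbered arrays correlated at 0.4 to 0.839 in all 28 pairs of groups, and the headers place each number in its own scan session. Values with the session as a term (7 residual degrees of freedom) are given where they change a call. Alternatives covered background, scaling, probe choice, filters, slide and leaving out each array. All 10 genes are named, with the 3 genes most like each (of which the text prints some), and pathway genes are printed as examples. The genes and lists were chosen with earlier results of these data known.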

Additional observations from a re-analysis of the deposited data

How the results depend on the processing

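Counts of called genes among the 10 changed by over 1.5 times as follows. Plain normexp background correction, whose fit collapsed on the first 12 h arrays of KO and WT, left 3, 1 and 1 in KO and 4, 2 and 2 in WT for LPS against 0 h at 6, 12 and 24 h, and 0 in both for 24 h against 6 h. There the interquartile range of log2 values was 0.04 on the KO array and 0.06 on the WT array, beside local backgrounds of up to 722571 and 362027. With the local background capped at percentile 99, an alternative chosen after seeing the data, all 6 counts against 0 h were 8, and for 24 h against 6 h there were 5 in KO and 4 in WT. For 24 h against 6 h, median scaling gave 1 in KO and 0 in WT, quantile normalization 2 in KO, and the mean of a gene's probes 5 in WT. The replicate block gave 5 in WT for that span, 2 for 12 h against 6 h in KO and 1 for 24 h against 12 h in KO. The slide as a random block gave 5 in WT for that span, 1 for 12 h against 6 h in WT and 2 for 24 h against 12 h in KO. Leaving out each array gave 2 to 5 in KO and 0 to 4 in WT for 24 h against 6 h. Apart from the calls of Tbk1, Ddx58, Ifi204, Ifih1 and Eif2ak2 given above, the replicate block changed no other call of the 10. Over all genes it called 3713 of 17658 higher at 6 h in KO, against 2165 without it, and 4167 in WT, against 2231. Across the alternatives the calls over all genes, in either direction, ranged from 425 to 8176 in KO and from 509 to 8345 in WT at 6 h. For 24 h against 6 h they ranged from 3 to 5673 in KO and from 15 to 5924 in WT. A changed count among the 10 is thus not shown to be particular to them. KO against WT gave 0 of the 10 under every alternative run. Over single genes and comparisons, 4756 values kept their direction and call, 83 lost a call, 33 gained it, 231 uncalled values changed sign, and 0 called values turned. With 2 arrays a group, the interval of KO against WT at 24 h held a 2-fold change in at least 1 direction for 7 of 9 genes, or 5 with the session in the fit.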
